A study of Mus musculus with 12 samples.

Results

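The livers compared here are 6 of the 12 in the series: 3 from mice that drank plain water for 7 days and then received 200 µg of dexamethasone (Dex) by intraperitoneal injection (water-Dex), and 3 from mice on the same water that received phosphate-buffered saline (water-PBS). All were female C57BL/6J mice, for which no transgene or deletion is named, and the injection preceded sampling of the liver by 2 h. The other 6 mice drank water with 25 mM ZnSO4 and were given the same injections; they entered the same fit, shared its estimate of the spread, and are compared only for named genes at the end. RNA of the whole liver was sequenced, so that fewer cells of a type and less RNA per cell cannot be told apart. Of 54838 gene identifiers, 12724 had at least 10 counts in at least 3 of the 6 libraries, and these make up the response described below.

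Dex is a synthetic ligand of the glucocorticoid receptor, a nuclear receptor that resides in the cytoplasm with HSP90-type chaperones and moves to the nucleus once it has bound hormone. There it binds DNA, as a dimer on paired inverted half-sites or through other factors, and raises transcription of some genes and lowers that of others. In liver the receptor is known for inducing gluconeogenesis and the breakdown of amino acids, for cooperating with cytokines on acute phase genes, and for restraining inflammatory genes.

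Total counts ran from 11165847 to 11710307 in water-Dex and from 9091152 to 11277215 in water-PBS. Between 18547 and 18885 genes had a count in a Dex library and between 19069 and 19184 in a PBS library. Levels are normalized read counts, which are counts divided by the size factor of the library, and are given as mean ± SD with n = 3 mice. They are not divided by gene length, so they are compared between mice and not between genes. Calls required a DESeq2 adjusted p below 0.05 together with a log2 fold change beyond 0.8 in either direction.

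At 2 h Dex had changed 1356 of 12719 genes with an adjusted p (10.7%), of which 663 were higher (5.21%) and 693 lower (5.45%). The median of all tested genes was -0.01 on the log2 scale, close to 0. Division by the size factors sets the middle of the genes near 0, so this median cannot show a shift shared by all genes. The called increases were larger and sat on more abundant genes than the called decreases. Their median log2 fold change was 1.33 against -1.21. A log2 fold change above 3 was reached by 56 increases, and one below -3 by 28 decreases. Among 1441 tested genes whose PBS mean reached 1000 normalized counts, 67 were called higher and 27 lower. Of the called increases, 22 reached a Dex mean of 10000 or more, whereas 0 of the called decreases started at a PBS mean of 10000. The 22 are counted at the level after Dex, so they include genes that the increase itself brought there, such as *Igfbp1*. All 3 Dex libraries lay above all 3 PBS libraries for 660 of the 663 increases, and below them for 676 of the 693 decreases. Of all 12724 genes that passed the filter, 2608 were separated upward and 2561 downward. A call made on the same counts favours such separation, so it is no independent support. Genes called higher held 11.19% to 11.38% of all counts in the Dex libraries and 4.368% to 4.73% in the PBS libraries, and genes called lower held 0.5003% to 0.5159% and 1.415% to 1.542%. These shares describe genes chosen on the same counts. Shares of gene lists given as called are to be read against the 5.21% and 5.45% of all tested genes. In 74 genes the filter was passed through the Dex libraries only and in 113 through the PBS libraries only, and such genes had to differ to some degree. Of the genes named in what follows, *Gm19439*, *Fam107a*, *Slc10a6*, *Pik3ip1*, *Vdr*, *Cbr3* and *Gm45774* passed through Dex only, and *Gadd45a*, *Id4*, *Il1b*, *Ier5l*, *Sp5*, *Cxcl10*, *Cxcl11* and *Ddit4l* through PBS only, so their direction was partly fixed by the filter. The shares of lists given below count such members and were not recomputed without them. Without all genes of this kind 1225 calls were left, 608 higher and 617 lower.

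**Figure D1:**
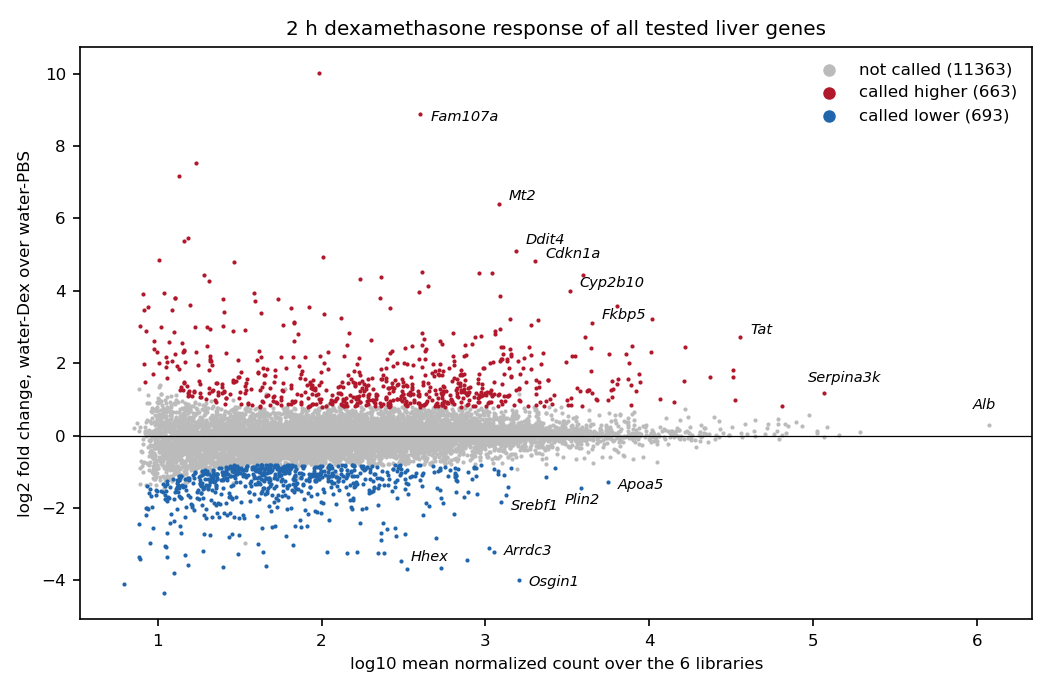
Each point is 1 of the 12719 tested genes, placed by the log10 of its mean normalized count over the 6 libraries (horizontal) and by its log2 fold change of water-Dex over water-PBS (vertical). Red points are the 663 genes called higher and blue points the 693 called lower. Abundant genes to the right, such as *Tat* and *Serpina3k*, were among the increases, and the called decreases end further to the left. The horizontal mean includes the Dex libraries, so an increase moves a gene to the right and a decrease to the left.

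Most of the classical targets of the glucocorticoid receptor rose. Of 18 tested members, 14 (77.8%) were called higher and 0 lower, and the median log2 fold change was 2.00, against 5.21% called higher and a median of -0.01 over all tested genes; the list was drawn up from textbook targets with results of these data known. *Tat* (ENSMUSG00000001670, chromosome 8, 109990437 to 109999803 on mm10), which encodes the tyrosine aminotransferase by which hepatic glucocorticoid action has long been measured, had 7896, 8469 and 12259 in water-PBS and 62488, 63849 and 61511 in water-Dex. The Dex mice lay close together and far above all PBS mice (log2 fold change 2.71, SE 0.16, DESeq2 adjusted p 9.04e-60). *Fkbp5*, a chaperone partner that lowers hormone binding of the receptor, had 1121, 1118 and 539 in water-PBS and 8044, 7965 and 7980.4 in water-Dex (log2 fold change 3.11, SE 0.20, DESeq2 adjusted p 8.37e-50). Its 3 Dex levels nearly coincided, and 1 PBS mouse lay below the others. *Tsc22d3*, which encodes the anti-inflammatory protein GILZ, rose from 769 ± 161 to 3712 ± 484 (log2 fold change 2.27, SE 0.14, DESeq2 adjusted p 1.1e-53), and *Sgk1*, a kinase gene that is induced by glucocorticoids and mineralocorticoids, from 286 ± 36.4 to 1997 ± 379.6 (log2 fold change 2.80, SE 0.14, DESeq2 adjusted p 3e-88). *Zbtb16* rose less evenly, from 222 ± 131 to 767 ± 33.3 (log2 1.79, DESeq2 adjusted p 0.016), a call that was kept only without water-PBS replicate 1 when single libraries were left out (adjusted p 0.0582 to 0.0822 without any other). *Zbtb16* encodes a zinc finger repressor. *Errfi1*, an inhibitor of the EGF receptor, was already abundant and rose from 8455 ± 3486 to 24252 ± 403 (log2 fold change 1.52, SE 0.34, DESeq2 adjusted p 7.31e-05).

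*Igfbp1*, which encodes a secreted binding protein for insulin-like growth factors, had 1955, 899 and 86.2 in water-PBS and 8852, 15249 and 10918 in water-Dex. All 3 Dex mice were above the PBS mice, which themselves spread widely (log2 fold change 3.57, SE 0.92, DESeq2 adjusted p 0.000905; log2 4.57 without water-PBS replicate 1). Of the listed targets that were not called, *Hsd11b1*, which regenerates active glucocorticoid in liver, was at 7626 ± 212 in PBS and 8100.2 ± 285 in Dex. *Klf9* passed the adjusted p (0.00755) with a log2 fold change of 0.55. *Pdk4*, which restrains pyruvate oxidation, had 1009, 174 and 133 in water-PBS and 396, 1559.9 and 473 in water-Dex (DESeq2 adjusted p 0.496; called without water-PBS replicate 1, at log2 2.40 and adjusted p 0.00249). *Angptl4*, an inhibitor of lipoprotein lipase, had 1685, 937 and 366 in water-PBS and 2034, 2755 and 1856 in water-Dex (log2 1.15, DESeq2 adjusted p 0.0577) and was called with edgeR (adjusted p 0.0305), with the replicate block (DESeq2 adjusted p 0.00926) and without water-PBS replicate 1 (DESeq2 adjusted p 0.000175). The receptor gene itself, *Nr3c1*, had 1195, 1268 and 1278 in water-PBS and 1025, 1005 and 979.6 in water-Dex, a small difference that passed the adjusted p but not the fold threshold (log2 fold change -0.31, SE 0.08, DESeq2 adjusted p 0.00071). Among 21 tested genes of the receptor, its chaperones and coregulators, 3 were called higher, namely *Fkbp5*, the co-chaperone gene *Dnaja1* (log2 0.87, but 0.74 and uncalled without water-PBS replicate 2) and the acetyltransferase gene *Ep300* (log2 1.17), and 0 lower.

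The promoters of the tested genes were searched for the paired site that the receptor dimer binds. RefSeq promoters (GRCm38.p6, 250 bases before to 50 after a start) were matched by symbol for 9596 of the tested genes, among them 501 called higher and 520 called lower. The full palindrome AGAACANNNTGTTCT was found for 1 gene called higher, *Sgk1*, for 0 called lower and for 2 in all. A relaxed form, GNACANNNTGTNC, which includes every full palindrome, was found for 8 genes called higher (1.6%), 0 called lower and 40 of all (0.417%). These 8 sequences are shown because each is a raised gene with a paired site near its start; each is written 5′ to 3′ on the strand of its gene, and capitals mark the relaxed palindrome.
Sgk1: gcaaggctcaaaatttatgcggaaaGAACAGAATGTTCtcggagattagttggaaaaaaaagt
Fam107a: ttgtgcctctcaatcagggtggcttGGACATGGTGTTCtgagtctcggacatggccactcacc
Mt1: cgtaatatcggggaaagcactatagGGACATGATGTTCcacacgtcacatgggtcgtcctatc
Map3k6: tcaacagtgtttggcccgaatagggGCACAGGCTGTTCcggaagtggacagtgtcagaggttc
Serpina3n: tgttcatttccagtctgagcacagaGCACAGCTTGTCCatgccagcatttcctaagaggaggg
Slc10a6: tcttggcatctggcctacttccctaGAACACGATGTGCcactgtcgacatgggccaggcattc
Galnt11: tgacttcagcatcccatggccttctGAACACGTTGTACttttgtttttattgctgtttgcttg
Gm16573: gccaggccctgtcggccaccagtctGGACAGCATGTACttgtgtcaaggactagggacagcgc
They lie at *Sgk1* chr10:21993677-21993739 (plus strand), *Fam107a* chr14:8309860-8309922 (minus strand), *Mt1* chr8:94178970-94179032 (plus strand), *Map3k6* chr4:133240612-133240674 (plus strand), *Serpina3n* chr12:104406605-104406667 (plus strand), *Slc10a6* chr5:103629529-103629591 (minus strand), *Galnt11* chr5:25246176-25246238 (plus strand) and *Gm16573* chr14:56620656-56620718 (minus strand). *Sgk1* holds the full palindrome, 188 bases before the start, and the match of *Mt1* begins 94 bases before its start. *Fam107a* had the highest fold change of the 8, *Mt1* rose by log2 4.43, and *Map3k6*, a stress-activated kinase gene, rose from 13.7 ± 3.42 to 122 ± 6.16 (log2 fold change 3.13, SE 0.28, DESeq2 adjusted p 1.71e-27). The others were called at log2 fold changes of 1.42 (*Serpina3n*), 2.57 (*Slc10a6*; 3.22 without water-PBS replicate 2), 1.56 (*Galnt11*) and 1.31 (*Gm16573*, which overlaps *Parp4* on the other strand). The half-site AGAACA alone, on either strand, was in 15.6% of the promoters of genes called higher, 15.8% of those called lower and 15.3% of all. Other motifs, searched on both strands and given in the same order, were found at these shares: the cyclic AMP response element TGACGTCA in 4.59%, 2.12% and 3.49%, the forkhead site GTAAACA in 2.59%, 5.38% and 3.42%, the E-box CACGTG in 11.6%, 10.2% and 11.7%, the AP-1 site TGANTCA in 7.78%, 7.69% and 6.44% and the TATA box TATAAA in 11.4%, 12.3% and 9.4%. A match is a description of these letters in this window, and sites further from the start were not searched.

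A pair of genes had almost no counts in PBS and clear levels in Dex. *Gm19439* (ENSMUSG00000105843, chromosome 3, 88030878 to 88033150), a gene model of undetermined type in the annotation, had 0 counts in each PBS library and 214, 154 and 205 counts in the Dex libraries, which is at least 63.3-fold higher when each PBS library is set to 3 counts. *Fam107a* (ENSMUSG00000021750, chromosome 14, 8296274 to 8318023), which encodes an actin-associated stress-response protein, had 2, 2 and 1 counts in PBS and 806, 644 and 912 in Dex. The ratio of the summed counts, scaled for depth, was 474 (95% exact interval 203 to 1460, counting error only).

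The other large increases named by size had varied roles. The metallothionein genes encode small cysteine-rich proteins that bind zinc. *Mt2* had 13.7, 44.7 and 25.4 in water-PBS and 2435, 2227 and 2515 in water-Dex, and *Mt1* had 209.6, 403 and 437 in water-PBS and 7579, 7567 and 7479 in water-Dex. No PBS mouse came near a Dex mouse in either (log2 fold change 6.41, SE 0.38, DESeq2 adjusted p 1.12e-61 for *Mt2* and log2 fold change 4.43, SE 0.23, DESeq2 adjusted p 1.42e-79 for *Mt1*). That the groups did not overlap was a condition for naming the largest increases. *Gm45774*, which overlaps *Mt2* on the other strand, was called higher too, and without the strand setting of the counting, reads of such a pair cannot be told apart. *Ddit4*, which encodes REDD1, an inhibitor of the mTOR complex 1, had 60, 76.7 and 125 in water-PBS and 2452, 3082 and 3399 in water-Dex (log2 fold change 5.10, SE 0.21, DESeq2 adjusted p 6.06e-133). *Cdkn1a*, the gene of the cell cycle inhibitor p21, had 169.6, 163 and 80.6 in water-PBS and 3377, 4292 and 4014 in water-Dex (log2 fold change 4.82, SE 0.34, DESeq2 adjusted p 1.14e-43). The stress-inducible genes *Gadd45g* and *Gadd45b* followed, *Gadd45g* from 93.0 ± 34.1 to 2091 ± 22.7 (log2 fold change 4.49, SE 0.39, DESeq2 adjusted p 7.65e-29) and *Gadd45b* from 47.5 ± 18.8 to 739.8 ± 62.2 (log2 3.96). *Lcn2*, an iron-sequestering acute phase protein, rose from 77.6 ± 23.8 to 1759 ± 468 (log2 4.5), *Plin4*, a lipid droplet protein, from 21.1 ± 1.03 to 440.1 ± 102 (log2 4.39), and *Cyp2b10*, a drug-metabolizing cytochrome, from 386 ± 97.8 to 6176 ± 727 (log2 4.00). The clock-controlled repressor *Ciart* had 1.05, 5.48 and 13.3 in water-PBS and 199, 181 and 215 in water-Dex (log2 4.94, and 5.87 without water-PBS replicate 3). *Mdm1*, a centriole protein gene, rose from 16.1 ± 2.79 to 326 ± 72.1 (log2 4.33), and the noncoding transcript *Gm43305* from 48.5 ± 11.5 to 848 ± 243 (log2 4.13). *Phf11c* rose from 34.6 ± 4.80 to 788 ± 96.6 (log2 fold change 4.51, SE 0.18, DESeq2 adjusted p 2.62e-131), and its neighbour *Setdb2*, a putative histone methyltransferase gene, from 158 ± 11.5 to 2291 ± 97.9 (log2 fold change 3.86, SE 0.15, DESeq2 adjusted p 8e-142). *Phf11c* has close copies next to it, so its level is uncertain.

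**Figure D2:**
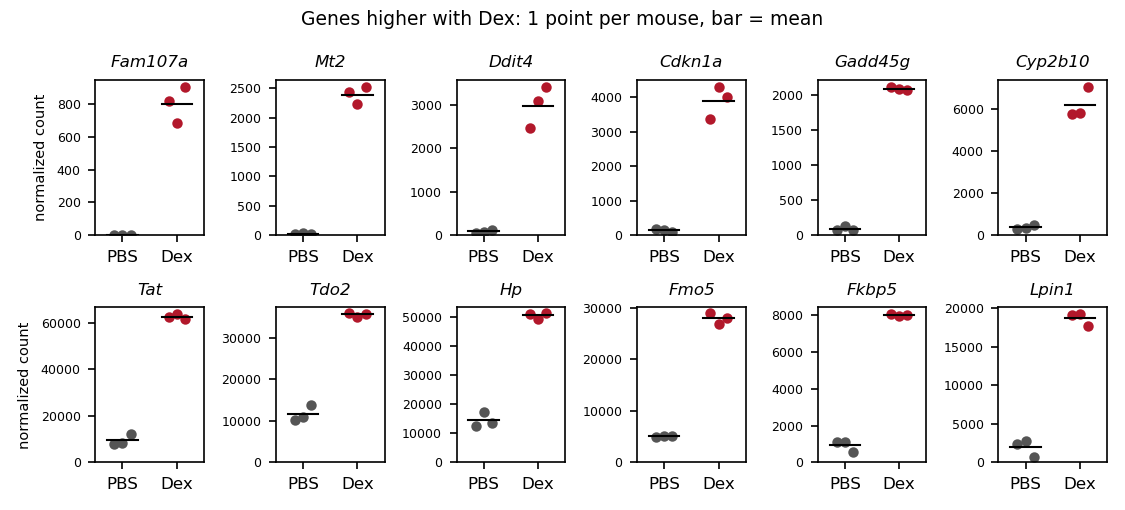
Normalized counts (vertical, linear from 0, a scale for each gene) of 12 genes called higher, with 1 grey point for each water-PBS mouse, 1 red point for each water-Dex mouse and a bar at the mean of 3. In each of the 12 genes every Dex mouse lay above every PBS mouse; the 3 Dex points of *Fkbp5*, *Gadd45g* and *Tat* nearly coincide.

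Among genes of glucose production a few rose and most were not called. Of the genes of gluconeogenesis and glucose export, 5 of 19 tested members (26.3%) were called higher and 0 lower, with a median log2 fold change of 0.09. *Pck1*, whose product PEPCK commits oxaloacetate to glucose synthesis, had 24208, 17114 and 6736 in water-PBS and 47356, 54164 and 45576 in water-Dex (log2 fold change 1.61, SE 0.44, DESeq2 adjusted p 0.00177). Its lowest Dex value was above its highest PBS value, and the PBS mice spread more than the Dex mice. *Sds*, which makes pyruvate from serine, rose from 674 ± 136 to 3141 ± 159 (log2 fold change 2.22, SE 0.14, DESeq2 adjusted p 3.92e-54), the transcription factor gene *Foxo1* from 427 ± 14.4 to 1045 ± 35.1 (log2 fold change 1.29, SE 0.094, DESeq2 adjusted p 2.23e-40), *Got1* from 2505 ± 376 to 6008 ± 481 (log2 1.26) and the glucose-6-phosphate transporter gene *Slc37a4* from 1330.4 ± 142 to 2327 ± 137 (log2 0.81, under the fold threshold without water-PBS replicate 1 at 0.72 and without water-Dex replicate 3 at 0.76). *Pcx* and *Ppargc1a* passed the adjusted p with log2 fold changes of 0.58 and 0.59. *G6pc*, the last step of glucose release, was not called, with 2811, 3259 and 1757 in water-PBS and 1248, 2163 and 2074 in water-Dex (log2 fold change -0.51, SE 0.34, DESeq2 adjusted p 0.294).

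Several enzymes of glucose use rose as well. Of the glycolysis list, 5 of 18 tested members (27.8%) were called higher and 0 lower, with a median log2 fold change of 0.00. *Pfkfb3*, which makes the activator of phosphofructokinase, rose from 141 ± 27.7 to 715 ± 40.2 (log2 fold change 2.34, SE 0.16, DESeq2 adjusted p 3.28e-46), *Hk2* from 24.4 ± 8.77 to 61.9 ± 12.3 (log2 1.33), Pfkfb2 from 77.1 ± 2.81 to 135 ± 14.4 (log2 0.81) and the glucose transporter gene *Slc2a1* from 108 ± 22.9 to 253 ± 26.1 (log2 1.23). Glycogen metabolism stood at the share of all genes, as 1 of 19 tested members (5.26%) were called higher and 0 lower, with a median log2 fold change of -0.01; the gene that rose was *Ppp1r3c*, which targets protein phosphatase 1 to glycogen (from 1203 ± 339 to 3057 ± 280.0, log2 1.35).

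Some of the enzymes that degrade amino acids rose. Of 26 tested members, 6 (23.1%) were called higher and 0 lower, and the median log2 fold change was 0.05. *Tdo2*, the first step of tryptophan breakdown, had 10101, 10835 and 13888 in water-PBS and 36014, 34949.7 and 35751 in water-Dex (log2 fold change 1.62, SE 0.15, DESeq2 adjusted p 1.73e-25). Besides *Tat*, *Tdo2*, *Sds* and *Got1*, the alanine transaminase gene *Gpt2* rose from 3504 ± 854 to 8497 ± 198 (log2 1.28) and the lysine-degrading *Aass* from 3814 ± 841 to 8027 ± 507 (log2 1.07). The histidine ammonia-lyase gene *Hal* was lower by adjusted p (2.01e-07) at a log2 fold change of -0.60, short of the threshold. In the urea cycle 1 of 8 tested members (12.5%) were called higher and 0 lower, with a median log2 fold change of 0.37; *Slc25a15*, the mitochondrial ornithine carrier, rose from 4095 ± 583 to 13271 ± 2052 (log2 fold change 1.7, SE 0.14, DESeq2 adjusted p 7.72e-34), and *Cps1*, the entry enzyme, was not called (log2 fold change 0.33, SE 0.14, DESeq2 adjusted p 0.0658). Among amino acid transporters 3 of 22 tested members (13.6%) were called higher and 1 (4.55%) lower, with a median log2 fold change of 0.19. *Slc38a2*, the glutamine and alanine transporter SNAT2, had 1613, 1559.5 and 1021 in water-PBS and 6943, 8546 and 6940.4 in water-Dex (log2 fold change 2.42, SE 0.17, DESeq2 adjusted p 3.32e-45), and *Slc7a2*, a carrier of arginine and lysine, rose from 4262 ± 215 to 11249 ± 214 (log2 1.4). The calls of *Slc6a9* (log2 0.85) and of *Slc1a4* (log2 -0.85) were lost without some single libraries: *Slc6a9* without water-PBS replicate 3 (0.65) or without water-Dex replicate 2 (0.71), and *Slc1a4* without water-Dex replicate 2, water-Dex replicate 3 or water-PBS replicate 1 (DESeq2 adjusted p 0.127, 0.0842 and 0.092). *Slc38a3*, which imports glutamine, had the largest drop in counts of any tested gene that was not called, 13915 ± 2317 against 8418 ± 2628 (log2 -0.73, DESeq2 adjusted p 0.0011).

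Lipid droplet and lipolysis genes were called in both directions. Of this list 5 of 22 tested members (22.7%) were called higher and 4 (18.2%) lower, with a median log2 fold change of 0.26. *Lpin1*, a phosphatidate phosphatase and coactivator, had 2428, 2832 and 746 in water-PBS and 19182, 19211 and 17745 in water-Dex (log2 fold change 3.22, SE 0.53, DESeq2 adjusted p 2.57e-08). The droplet proteins *Plin4* and *Plin5* rose, *Plin5* from 412 ± 35.3 to 3797 ± 142 (log2 fold change 3.21, SE 0.12, DESeq2 adjusted p 4.79e-142), whereas the droplet protein gene *Plin2* fell from 5569.7 ± 1159 to 2049.6 ± 475 (log2 fold change -1.44, SE 0.22, DESeq2 adjusted p 1.19e-09). The lipase gene *Pnpla2* rose from 591 ± 41.6 to 1245 ± 238 (log2 1.07), and its inhibitor *G0s2* had 961, 261 and 633 in water-PBS and 43.6, 65.7 and 36.6 in water-Dex (log2 fold change -3.67, SE 0.57, DESeq2 adjusted p 2.09e-09). *Angptl8*, a feeding-induced inhibitor of lipoprotein lipase, had 440.4, 679 and 1860.0 in water-PBS and 64.9, 63.6 and 109 in water-Dex (log2 fold change -3.65, SE 0.50, DESeq2 adjusted p 6.36e-12; log2 -2.82 without water-PBS replicate 3, the highest of the PBS mice). Fatty acid synthesis was near the share of all genes. There the sterol-responsive regulator *Srebf1* had 1623, 1599.7 and 2599 in water-PBS and 550.3, 549 and 527 in water-Dex (log2 fold change -1.84, SE 0.17, DESeq2 adjusted p 1.42e-26), and *Thrsp*, which is linked to lipogenesis, went the other way, from 2484 ± 987 to 11878 ± 2170.2 (log2 fold change 2.26, SE 0.35, DESeq2 adjusted p 1.71e-09). In that list 1 of 20 tested members (5%) were called higher and 1 (5%) lower, with a median log2 fold change of -0.11. *Fasn*, the synthase itself, had 11154, 6657 and 11383 in water-PBS and 4913, 5247 and 8561 in water-Dex (log2 -0.64, DESeq2 adjusted p 0.106), and was called lower without water-PBS replicate 2 (log2 -0.85) and without water-Dex replicate 3 (log2 -0.94). Of the fatty acid oxidation list 2 of 23 tested members (8.7%) were called higher and 0 lower, with a median log2 fold change of 0.14. *Acot1*, an acyl-CoA thioesterase gene, rose from 314 ± 178 to 1103 ± 222 (log2 1.81), and *Cyp4a14* from 9724 ± 2231 to 18686 ± 4547 (log2 0.94; 0.77 without water-PBS replicate 3 and 0.76 without water-Dex replicate 2, both under the threshold). *Cpt1a*, which admits fatty acids to the mitochondrion, was at log2 -0.04 and was not called.

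Sterol and drug metabolism each held a few called genes in lists with medians near 0. For cholesterol synthesis 3 of 25 tested members (12%) were called higher and 0 lower, with a median log2 fold change of 0.02. *Insig2*, which retains the SREBP proteins in the endoplasmic reticulum, rose from 3036 ± 530.4 to 12095 ± 994 (log2 fold change 1.99, SE 0.17, DESeq2 adjusted p 7.71e-29). *Hmgcs1*, an early enzyme of the pathway, was at log2 -0.54 (DESeq2 adjusted p 0.0274). In bile acid synthesis and transport, near the share of all genes, 1 of 23 tested members (4.35%) were called higher and 0 lower, with a median log2 fold change of 0.01 (the gene called was *Amacr*, described with the zinc-water mice); *Cyp7a1*, the rate-limiting enzyme, had 1075, 1883 and 3569 in water-PBS and 3239.8, 820.2 and 2421 in water-Dex, so the groups overlapped (log2 fold change -0.01, SE 0.67, DESeq2 adjusted p 0.997). On the axis of the xenobiotic receptors CAR and PXR 5 of 26 tested members (19.2%) were called higher and 0 lower, with a median log2 fold change of 0.07. *Cyp2b10*, the marker of CAR activation, had 306, 358 and 495 in water-PBS and 5742, 5771 and 7016 in water-Dex (log2 fold change 4.00, SE 0.21, DESeq2 adjusted p 7.01e-77), *Alas1*, the first enzyme of heme synthesis, rose from 3430.0 ± 881 to 17036 ± 3346 (log2 2.31), *Por*, the electron donor of the cytochromes, from 3082 ± 231 to 8726 ± 656 (log2 fold change 1.5, SE 0.12, DESeq2 adjusted p 2.42e-36), and *Cyp3a11* from 46488 ± 1023 to 82576 ± 7551 (log2 0.83, and 0.75 without water-Dex replicate 2). The receptor genes *Nr1i2* (PXR) and *Nr1i3* (CAR) passed the adjusted p in opposite directions, at log2 0.57 and -0.51. The estrogen sulfotransferase gene *Sult1e1* had 3.16, 17.3 and 3.31 in water-PBS and 61.8, 67.8 and 52.4 in water-Dex (log2 2.91; 4.23 without water-PBS replicate 2). Among conjugating enzymes 3 of 30 tested members (10%) were called higher and 0 lower, with a median log2 fold change of 0.04, with *Gstm3* at log2 1.43 and *Sult1d1* at 1.25. Several cytochromes and transferases have close relatives whose reads may have been split or dropped in counting.

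Several brakes on insulin and mTOR signalling rose. Of 30 tested genes 5 were called higher, against 2 lower and a median log2 fold change of 0.06. The increases included *Ddit4*, *Sesn1* (from 239 ± 11.6 to 654 ± 43.4, log2 1.46), a sestrin that restrains mTOR, and *Eif4ebp3* (from 15.4 ± 3.07 to 65.6 ± 14.8, log2 2.08), a repressor of translation initiation. The pseudokinase gene *Trib3*, which binds AKT, rose too (log2 1.18). *Irs1*, an adaptor of the insulin receptor, fell from 135 ± 26.8 to 58.3 ± 8.68 (log2 fold change -1.21, SE 0.23, DESeq2 adjusted p 2.67e-06), and the insulin receptor gene *Insr* was at log2 -0.02. *Irs2* had 549, 203 and 113 in water-PBS and 175, 264 and 179 in water-Dex and was not called. *Ddit4l*, a relative of *Ddit4*, was called lower from low levels (log2 -1.56), which did not hold without water-PBS replicate 2, water-Dex replicate 2 or water-Dex replicate 3 (DESeq2 adjusted p 0.16, 0.0648 and 0.0967). In the autophagy and FoxO list 4 of 22 tested members (18.2%) were called higher and 0 lower, with a median log2 fold change of 0.24. *Foxo3* rose from 458 ± 80.9 to 1158 ± 83.0 (log2 1.34), *Bnip3*, a mitophagy receptor gene, from 635 ± 88.9 to 1525 ± 78.8 (log2 1.26), and *Pik3ip1* from 5.45 ± 1.67 to 20.7 ± 6.71. Of the growth arrest genes 7 of 24 tested members (29.2%) were called higher and 4 (16.7%) lower, with a median log2 fold change of 0.28. *Gadd45a*, a further member of that family, had 32.8 ± 5.61 in PBS and 6.82 ± 1.71 in Dex, and it passed the count filter through PBS only. In the IGF and growth hormone axis, near the share of all genes, 1 of 16 tested members (6.25%) were called higher and 1 (6.25%) lower, with a median log2 fold change of 0.00. *Igf1* was at log2 -0.18, and *Cish*, a feedback inhibitor of cytokine signalling, was called lower (log2 -1.85) on PBS values of 74.8, 278 and 125; the call was lost without water-PBS replicate 2 (log2 -1.18 and adjusted p 0.21), without water-Dex replicate 2 or 3 (adjusted p 0.0997 and 0.109) and with the replicate block (DESeq2 adjusted p 0.0645).

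Genes of the circadian clock were called in both directions. Of 22 tested members, 6 (27.3%) were called higher and 5 (22.7%) lower, and the median log2 fold change was 0.03. *Nr1d1*, which encodes the repressor REV-ERBα, had 1325, 918 and 890.3 in water-PBS and 211, 301 and 193 in water-Dex (log2 fold change -2.15, SE 0.19, DESeq2 adjusted p 3.17e-28); it overlaps *Thra* on the other strand. *Dbp*, an output activator, had 31.6, 77.6 and 144 in water-PBS and 9.12, 10.6 and 0.99 in water-Dex (log2 -3.61, and -2.99 without water-PBS replicate 3). The period genes parted: *Per2* fell from 89.9 ± 36.1 to 32.6 ± 17.4 (log2 -1.46), *Per3* was called lower (log2 -1.72), and *Per1*, a direct receptor target in many tissues, was called higher with 105, 215 and 91.7 in water-PBS and 278, 258 and 287 in water-Dex (log2 0.99, DESeq2 adjusted p 0.00389). The *Per3* call was lost without any one Dex library (DESeq2 adjusted p 0.068 to 0.136) and without water-PBS replicate 3 (log2 -1 and adjusted p 0.129). The *Per1* call was lost without any one Dex library (adjusted p 0.0957, 0.0776 and 0.114) and without water-PBS replicate 1 (log2 0.83 and adjusted p 0.136) or water-PBS replicate 3 (log2 0.77 and adjusted p 0.041). *Bhlhe40* fell from 1173 ± 526 to 397 ± 146 (log2 -1.56). On the other side were *Ciart*, the deubiquitinase gene *Usp2* (from 55.4 ± 33.7 to 344 ± 21.3, log2 2.64), *Nfil3* (from 319 ± 161 to 963 ± 13.5, log2 1.59), *Rora* (log2 1.09) and *Cry2* (log2 1.14). *Arntl*, the activator at the core of the clock, had 278, 202 and 249.6 in water-PBS and 249, 261 and 230.3 in water-Dex and was not called. Among Krüppel-like factors 5 of 13 tested members (38.5%) were called higher and 2 (15.4%) lower, with a median log2 fold change of 0.31: *Klf15*, a regulator of amino acid breakdown, rose from 1276 ± 58.2 to 2804 ± 137 (log2 fold change 1.14, SE 0.087, DESeq2 adjusted p 3.76e-37), *Klf4* rose from low levels (from 20.9 ± 6.63 to 47.5 ± 3.62), and *Klf10* fell from 442 ± 70.7 to 134 ± 39.2 (log2 -1.72). *Klf1*, an erythroid factor at low level, was called lower (log2 -1.44), but not without water-PBS replicate 3 (log2 -0.91 and adjusted p 0.144) or water-Dex replicate 3 (log2 -1.19 and adjusted p 0.0615).

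The largest decreases included transcription factors, feedback inhibitors and lipid genes. *Osgin1* (ENSMUSG00000074063, chromosome 8, 119434124 to 119446256), an oxidative-stress-induced growth inhibitor gene, had 4353, 2466 and 2201 in water-PBS and 174, 199 and 191 in water-Dex (log2 fold change -4.00, SE 0.36, DESeq2 adjusted p 2.79e-26). *Arrdc3*, an α-arrestin that directs receptors to degradation, had 2617, 1824 and 1646 in water-PBS and 207, 203 and 249 in water-Dex (log2 fold change -3.21, SE 0.20, DESeq2 adjusted p 5.34e-53). Of 5 genes of the family, 1 was called higher and 2 lower, with *Arrdc4* falling from 245 ± 15.1 to 60.7 ± 9.38 (log2 -2.01) and *Arrdc2* rising from 89.7 ± 9 to 449 ± 41.2 (log2 2.33), and *Txnip* was at log2 0.07. *Hes1*, the Notch-responsive repressor, had 349, 256 and 284 in water-PBS and 25.3, 42.4 and 28.7 in water-Dex (log2 fold change -3.21, SE 0.25, DESeq2 adjusted p 3.07e-36). *Pde4b*, a phosphodiesterase that breaks down cyclic AMP, fell from 257 ± 74.9 to 27.0 ± 9.36 (log2 fold change -3.25, SE 0.29, DESeq2 adjusted p 7.56e-28), while the adenylyl cyclase genes *Adcy1* and *Adcy9* rose (log2 1.83 and 1.24); the whole cyclic AMP list was near the share of all genes, in that 2 of 33 tested members (6.06%) were called higher and 1 (3.03%) lower, with a median log2 fold change of -0.11. *Lhfpl2* fell from 195 ± 19.0 to 21.0 ± 2.13 (log2 -3.21), the ubiquitin ligase genes *Neurl3* and *Rnf152* from 118 ± 13.6 to 14.6 ± 1.39 and from 409 ± 112 to 55.4 ± 14.5 (log2 -3.02 and -2.89), and *Tnfaip2*, a TNF-inducible gene, from 435 ± 73.1 to 46.2 ± 1.47 (log2 fold change -3.23, SE 0.27, DESeq2 adjusted p 3.21e-30). *Inhbe* and *Inhba*, which encode activin subunits, had log2 fold changes of -2.78 and -2.02 and were called lower, whereas the stress cytokine gene *Gdf15* rose from 62.4 ± 16.4 to 274 ± 46.4 (log2 2.13) and *Fgf1* from 1157 ± 74.4 to 2901 ± 82.0 (log2 1.33). Of that list of secreted factors 3 of 17 tested members (17.6%) were called higher and 2 (11.8%) lower, with a median log2 fold change of -0.02. *Egr1* had 3390.2, 552 and 304 in water-PBS and 110.5, 161 and 123 in water-Dex; its fold change was -3.43 in all (SE 0.79, DESeq2 adjusted p 0.000143) and -1.71 without water-PBS replicate 1, at which it was still called (DESeq2 adjusted p 0.00147).

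**Figure D3:**
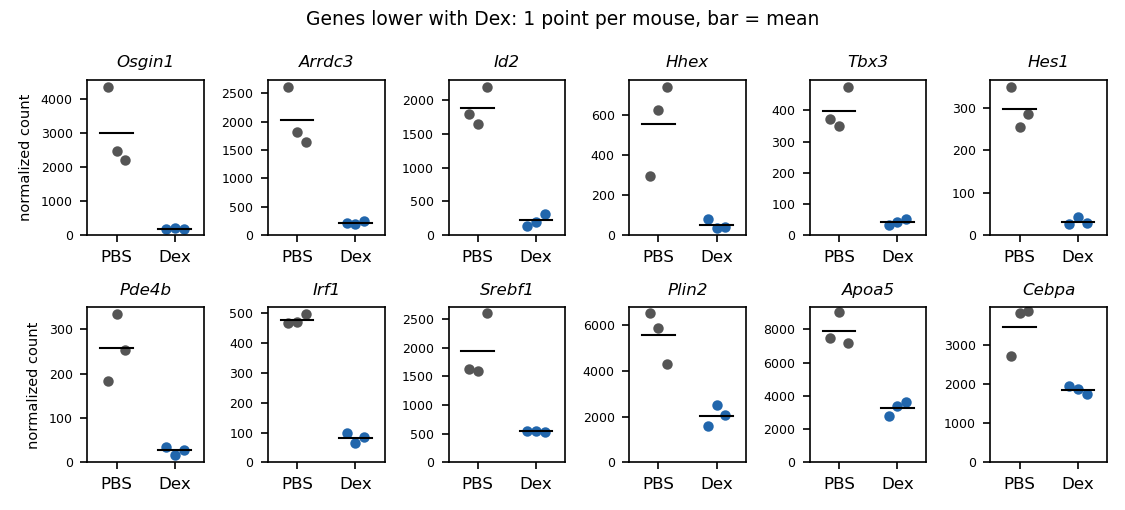
Normalized counts (vertical, linear from 0, a scale for each gene) of 12 genes called lower, with 1 grey point for each water-PBS mouse, 1 blue point for each water-Dex mouse and a bar at the mean of 3. In each of the 12 genes every Dex mouse lay below every PBS mouse, and the PBS mice were the more scattered ones in *Osgin1* and *Hhex*.

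Transcription factors that define the hepatocyte were lowered more often than raised. Of 20 tested members, 2 (10%) were called higher and 9 (45%) lower, and the median log2 fold change was -0.62. *Hhex*, a homeobox gene of liver development, had 296, 629.6 and 742 in water-PBS and 79.0, 35.0 and 38.6 in water-Dex (log2 fold change -3.45, SE 0.55, DESeq2 adjusted p 5.68e-09). *Tbx3* had 372, 349 and 475 in water-PBS and 32.4, 43.4 and 50.4 in water-Dex (log2 fold change -3.24, SE 0.27, DESeq2 adjusted p 6.38e-31). No Dex mouse reached a PBS mouse in either gene, which was a condition for naming the largest decreases. *Gata4* fell from 238 ± 31.5 to 72.3 ± 4.26 (log2 fold change -1.72, SE 0.16, DESeq2 adjusted p 3.34e-24), *Foxa2* from 321 ± 109 to 125 ± 35.0 (log2 -1.36) and *Foxa1* from 178 ± 4.71 to 74.1 ± 1.87 (log2 -1.27). *Cebpa*, a driver of hepatic metabolic genes, had 2708, 3811 and 3853 in water-PBS and 1952, 1877 and 1739.8 in water-Dex (log2 fold change -0.90, SE 0.14, DESeq2 adjusted p 1.34e-09), and its relatives *Cebpb* and *Cebpd* rose, *Cebpb* from 507 ± 114 to 2207 ± 118 (log2 fold change 2.12, SE 0.21, DESeq2 adjusted p 7.67e-23) and *Cebpd* from 48.5 ± 10.2 to 225 ± 32.6 (log2 fold change 2.21, SE 0.26, DESeq2 adjusted p 1.13e-15). *Onecut1* was called lower on PBS values of 112, 283 and 87.3 (log2 -2.13, DESeq2 adjusted p 0.0436); the call was lost with the replicate block (log2 -1.83, adjusted p 0.109) and without any one library but water-Dex replicate 1, at adjusted p 0.0512 to 0.302. *Hnf4a*, the central factor, was not called and had 8906, 9144 and 6998 in water-PBS and 10954, 9220.4 and 10009.8 in water-Dex.

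Nuclear receptor genes were called in both directions. Of 38 tested members, 3 (7.89%) were called higher and 7 (18.4%) lower, and the median log2 fold change was -0.09. Some retinoid receptor genes were among those lower: *Rxrg* fell from 53.5 ± 14 to 18.3 ± 2.73 (log2 -1.54), *Rarg* from 104 ± 26.8 to 45.9 ± 4.11 (log2 -1.18) and *Rara* from 172 ± 26.7 to 90.5 ± 7.48 (log2 -0.93, and -0.79 without water-PBS replicate 3). *Rxra*, at a much higher level than these, was not called, with 4431 ± 275 in PBS and 4814 ± 141 in Dex (log2 0.12, DESeq2 adjusted p 0.246). *Nr2f2* fell from 276 ± 45.8 to 120.3 ± 6.77 (log2 -1.19). *Ppard*, a fatty acid sensor, rose from 94.5 ± 11.7 to 409.7 ± 98.6 (log2 fold change 2.12, SE 0.18, DESeq2 adjusted p 3.61e-29), and *Vdr*, the vitamin D receptor gene, was called higher and went from 4.21, 0.91 and 0 to 24.3, 24.4 and 22.7 normalized counts. Without water-PBS replicate 1, 5 nuclear receptor genes were called higher instead of 3.

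Several genes that report Wnt signalling around the central vein fell. Of 14 pericentral markers 0 were called higher and 6 (42.9%) lower, *Sp5* among them, with a median log2 fold change of -0.25. Besides *Tbx3*, the Wnt feedback genes *Rnf43* (from 290.0 ± 66.2 to 54.7 ± 17.7, log2 fold change -2.40, SE 0.26, DESeq2 adjusted p 1.75e-18), *Axin2* (from 124 ± 11.4 to 46.1 ± 6.58, log2 -1.43) and *Lgr5* (from 80.4 ± 15.5 to 24.5 ± 2.72, log2 -1.71) were lower, and *Sp5*, which passed the filter through PBS only, went from 12.6, 21.9 and 27.6 to 3.04, 1.06 and 1.98 normalized counts. *Nkd1* was called at log2 -0.93 (-0.71 without water-PBS replicate 3, under the threshold). The enzyme genes *Glul*, *Cyp2e1* and *Cyp1a2* were at log2 0.43, 0.27 and -0.01, all uncalled, and the summed level of the 14 markers, enzymes included, was 94935 to 108964 in PBS and 107017 to 122899 in Dex. Id proteins are targets of BMP signalling and block basic helix-loop-helix factors. *Id2* had 1796, 1644 and 2199 in water-PBS and 135, 202 and 321 in water-Dex (log2 fold change -3.10, SE 0.22, DESeq2 adjusted p 1.2e-42), and *Id3* had 569, 794 and 1280.2 in water-PBS and 94.2, 146 and 134 in water-Dex (log2 fold change -2.82, SE 0.26, DESeq2 adjusted p 3.69e-25). *Smad9* fell from 242 ± 71.2 to 62.2 ± 3.78 (log2 -1.96); *Id4*, which passed the count filter through PBS only, was at 33.4 ± 10.7 in PBS and 5.13 ± 2.20 in Dex. Of the BMP list 0 of 19 tested members were called higher and 6 (31.6%) lower, with a median log2 fold change of -0.34; *Id1* was not called (log2 -0.68), nor was *Hamp*, the hepcidin gene (log2 fold change -0.34, SE 0.44, DESeq2 adjusted p 0.641).

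Immediate early genes were called in both directions. Of 20 tested members, 6 (30%) were called higher and 6 (30%) lower, and the median log2 fold change was 0.12. *Maff* rose from 41.7 ± 23.3 to 485 ± 121 (log2 3.54), and so did *Jun* from 127 ± 13.6 to 514 ± 26.8 (log2 fold change 2.01, SE 0.24, DESeq2 adjusted p 5.52e-16) and *Myc* from 29.7 ± 12.2 to 115 ± 21.9 (log2 1.94). *Junb* fell from 397 ± 174 to 74.3 ± 8.61 (log2 -2.42), and *Ier5l* went from 20, 11 and 11 to 1.01, 1.06 and 1.98 normalized counts. Of phosphatases and inhibitors that switch off receptor and MAP kinases, 5 of 16 tested members (31.2%) were called higher and 3 (18.8%) lower, with a median log2 fold change of 0.22. *Dusp1*, the phosphatase through which glucocorticoids are known to restrain p38 and JNK, had 136, 333 and 211 in water-PBS and 1004, 1262 and 1587 in water-Dex (log2 fold change 2.50, SE 0.39, DESeq2 adjusted p 3.13e-09). *Dusp14* rose from 13.3 ± 2.80 to 155 ± 35.8 (log2 fold change 3.55, SE 0.30, DESeq2 adjusted p 7.45e-31), *Dusp4* from 18.6 ± 2.27 to 62.7 ± 6.04 (log2 1.75) and *Dusp8* from 6.86 ± 4.10 to 50.7 ± 11.6 (log2 2.90; 3.50 without water-PBS replicate 1).

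Inflammatory genes were called in both directions, several from low levels. For the NF-κB list 3 of 20 tested members (15%) were called higher and 5 (25%) lower, with a median log2 fold change of -0.22. *Nfkbia*, the inhibitor IκBα, rose from 345 ± 63.0 to 1093 ± 56.3 (log2 fold change 1.66, SE 0.44, DESeq2 adjusted p 0.00144). *Irf1*, an interferon regulatory factor, had 468, 470.0 and 498 in water-PBS and 98.3, 63.6 and 84.0 in water-Dex (log2 fold change -2.55, SE 0.47, DESeq2 adjusted p 1.19e-06). *Icam1* fell from 131 ± 14.4 to 41.8 ± 3.31 (log2 -1.65, DESeq2 adjusted p 0.0158). The *Icam1* call was lost without water-PBS replicate 1 or 2 and without water-Dex replicate 2 or 3 (DESeq2 adjusted p 0.0605 to 0.0717). *Il1b* went from 29.5, 26.5 and 28.7 to 4.05, 0 and 2.97 normalized counts, and it passed the count filter through PBS only. The count of calls that were lower went from 5 to 3 without water-Dex replicate 2. *Vcam1*, an adhesion molecule gene, rose from 249 ± 62.3 to 801 ± 89.3 (log2 fold change 1.68, SE 0.18, DESeq2 adjusted p 1.55e-19). Of 14 chemokine genes (median log2 fold change -0.33) 0 were called higher and 2 lower (14.3%), both of which passed the count filter through PBS only, so that their direction is no evidence. They were *Cxcl11* (from 21.0 ± 7.69 to 4.07 ± 0.96) and *Cxcl10* (from 47.7 ± 3.57 to 6.87 ± 3.46, log2 -2.80, DESeq2 adjusted p 0.0297); *Cxcl10* was not called by edgeR (adjusted p 0.151) or without any one of the 6 libraries, at DESeq2 adjusted p 0.0544 to 0.136.

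Cytokine receptors and their inhibitors were called in both directions. Of 28 tested members, 4 (14.3%) were called higher and 4 (14.3%) lower, and the median log2 fold change was -0.16. *Il1r1*, the interleukin-1 receptor gene, had 521, 514 and 384 in water-PBS and 2049, 1978 and 2089.8 in water-Dex (log2 fold change 2.11, SE 0.23, DESeq2 adjusted p 1.32e-17), and *Il6ra* rose from 832 ± 115 to 2985 ± 56.5 (log2 fold change 1.84, SE 0.17, DESeq2 adjusted p 9.7e-25), while its signalling partner *Il6st* was at log2 -0.15. *Socs3*, the feedback inhibitor of interleukin-6 signalling, fell from 105 ± 26.6 to 15.4 ± 5.92 (log2 fold change -2.77, SE 0.74, DESeq2 adjusted p 0.00155), and *Il22ra1* from 45.1 ± 3.93 to 10.2 ± 2.70 (log2 -2.14). Without water-Dex replicate 2, or without water-PBS replicate 2, the number called lower was 2 instead of 4. Acute phase proteins were called in 1 direction: 12 of 24 tested members (50%) were called higher and 0 lower, with a median log2 fold change of 0.90. *Hp*, the hemoglobin scavenger haptoglobin, had 12430.3, 17211 and 13650.0 in water-PBS and 50997, 49195 and 51286 in water-Dex (log2 fold change 1.81, SE 0.15, DESeq2 adjusted p 2.01e-32). *Saa4* rose from 1964 ± 192 to 9459 ± 1397 (log2 fold change 2.27, SE 0.21, DESeq2 adjusted p 2.7e-25), and *Serpina3k*, *Serpina3m* and *Serpina3n*, neighbouring protease inhibitor genes with similar sequences, had log2 fold changes of 1.19, 1.47 and 1.42. *Mt1*, *Mt2* and *Lcn2* belong to this list too. *Orm1*, an abundant acute phase protein, was at log2 -0.02. Of interferon-stimulated genes 6 of 30 were called lower and 1 higher, 18 were lower and 2 higher by adjusted p alone, and the median was -0.46. *Ifit2*, *Ifit3* and *Ifit3b* were called lower at log2 fold changes of -1.20, -1.15 and -1.44, the last pair being near-identical copies. *Usp18*, an antagonist of interferon receptor signalling, moved the other way, from 162 ± 13.1 to 699.5 ± 122 (log2 fold change 2.11, SE 0.17, DESeq2 adjusted p 2.65e-32).

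**Figure D4:**
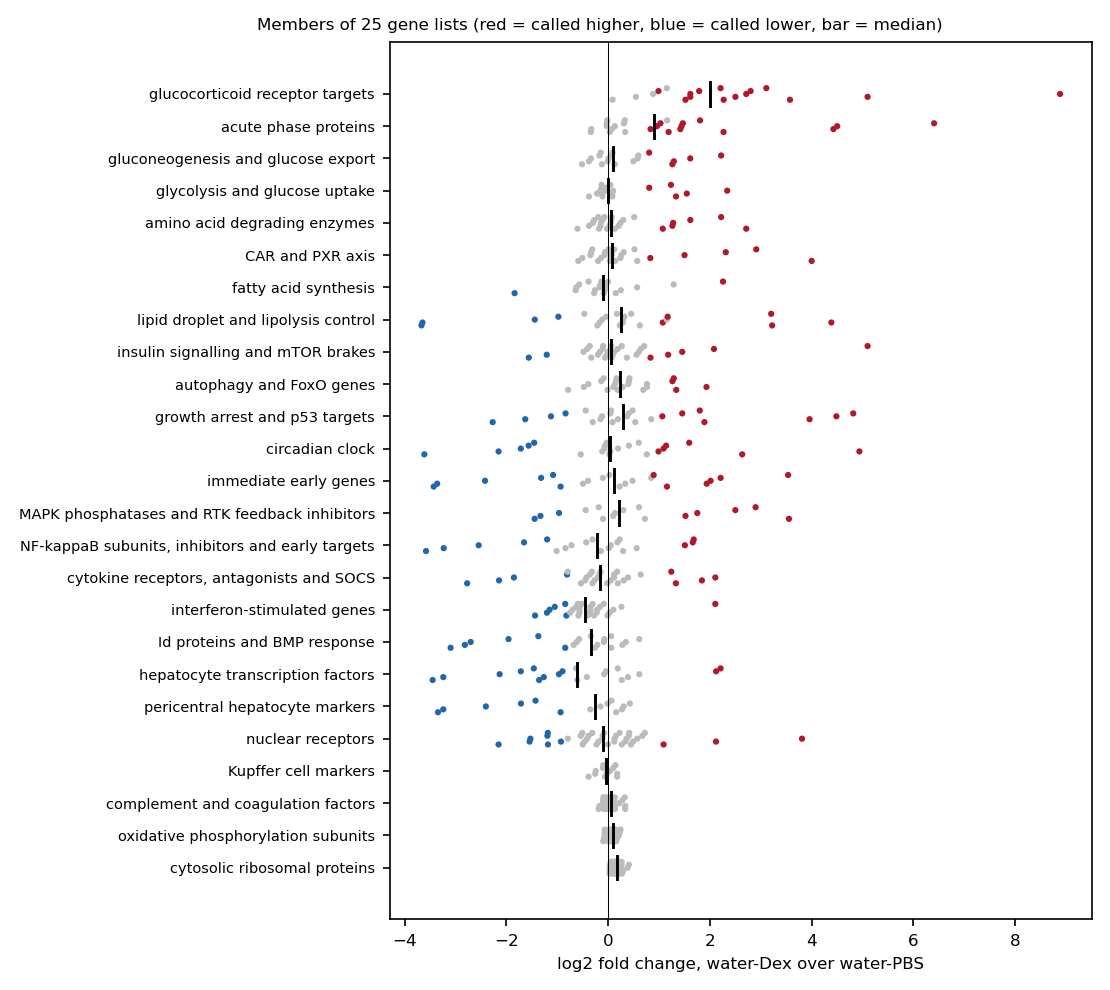
Each row is 1 of 25 gene lists and each point 1 tested member, placed by its log2 fold change of water-Dex over water-PBS (horizontal); red points were called higher, blue points lower, grey points were not called, and the black bar is the median of the row. Receptor targets and acute phase proteins lie to the right of 0 (medians 2.00 and 0.90), hepatocyte transcription factors to the left (-0.62), and complement, oxidative phosphorylation and ribosomal protein genes hold no call.

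Other stress lists held a few calls each, many of them near the share of all genes. *Nfe2l2*, the gene of the antioxidant regulator NRF2, fell from 871 ± 175 to 426 ± 31.6 (log2 fold change -1.03, SE 0.14, DESeq2 adjusted p 9.81e-13), and in its list 1 of 15 tested members (6.67%) were called higher and 2 (13.3%) lower, with a median log2 fold change of -0.09. The increase, in *Cbr3*, was from 5.60 ± 2.47 to 17.0 ± 2.84 normalized counts and was lost without most single libraries (DESeq2 adjusted p up to 0.137, without water-PBS replicate 3). Among heat shock chaperones 3 of 19 tested members (15.8%) were called higher and 1 (5.26%) lower, with a median log2 fold change of 0.23, with *Hspa2* rising from 18.1 ± 6.65 to 189 ± 30.1 (log2 3.37), *Hspa1b* at log2 1.46, a near-identical copy of *Hspa1a*, and *Hsf2* at -0.89 (-0.78 without water-PBS replicate 1). For ER stress, at 5.21% and 5.45% over all genes, 2 of 23 tested members (8.7%) were called higher and 1 (4.35%) lower, with a median log2 fold change of 0.02. *Herpud1*, a component of ER-associated degradation, had 4992, 3997 and 2265 in water-PBS and 10688, 12068 and 10412 in water-Dex (log2 fold change 1.56, SE 0.20, DESeq2 adjusted p 6.36e-13), whereas *Ddit3*, the gene of CHOP, was called lower at log2 -0.87 and lost the call with the replicate block (DESeq2 adjusted p 0.0518) and without water-PBS replicate 1, water-PBS replicate 2 or water-Dex replicate 3 (DESeq2 adjusted p 0.145, 0.0704 and 0.116). Of metallothionein and zinc transport genes 3 of 22 tested members (13.6%) were called higher and 1 (4.55%) lower, with a median log2 fold change of 0.09. Besides *Mt1* and *Mt2*, the importer gene *Slc39a14* rose from 2793 ± 298 to 4967 ± 308 (log2 0.83, under the threshold without water-PBS replicate 3 at 0.75 and without water-Dex replicate 3 at 0.78), and the exporter gene *Slc30a1* fell from 557 ± 101 to 239.5 ± 10.4 (log2 fold change -1.22, SE 0.14, DESeq2 adjusted p 1.47e-17).

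Housekeeping and cell type genes were mostly not called. Of 37 complement and coagulation genes, 50 oxidative phosphorylation subunits and 74 cytosolic ribosomal proteins, 0 were called by DESeq2 or by edgeR. In the same order, 4, 6 and 41 had an unadjusted p under 0.05 and 3, 2 and 22 passed the adjusted p, all of the latter higher, and the medians were 0.05, 0.09 and 0.17 on the log2 scale. *Alb*, the most abundant liver transcript, was at log2 0.29 (DESeq2 adjusted p 0.00185) and held 10.8% to 11.56% of counts in Dex and 9.626% to 10.92% in PBS. *Apoa5*, a regulator of triglyceride clearance, had the largest loss of counts of the called genes, from 7896 ± 993 to 3278 ± 413 (log2 fold change -1.27, SE 0.15, DESeq2 adjusted p 6.65e-16). Of 18 apolipoprotein genes 2 were called lower and 0 higher. Hepatocyte markers were all expressed, and 0 of 10 were called by DESeq2 or edgeR (6 at an unadjusted p under 0.05), with summed levels of 1354560 to 1620100 in PBS and 1750550 to 1871960 in Dex. Of 12 Kupffer cell markers 0 were called by DESeq2 or edgeR, 2 had an unadjusted p under 0.05, and their summed level was 6637 to 9164 in PBS and 7182 to 8944 in Dex. Sinusoidal endothelial markers summed to 7281 to 7751 in PBS and 6813 to 7644 in Dex, but 3 of 12 were called: *Lyve1*, a hyaluronan receptor gene, had 136, 183 and 163 in water-PBS and 945, 890.1 and 938 in water-Dex (log2 fold change 2.52, SE 0.14, DESeq2 adjusted p 2.6e-67), *Kdr*, the VEGF receptor 2 gene, fell from 895 ± 80.1 to 404 ± 37.5 (log2 fold change -1.15, SE 0.12, DESeq2 adjusted p 1.11e-20), and *Gpr182* fell from 438 ± 21.3 to 228 ± 13.1 (log2 -0.94). *Stab2*, another marker of these cells, was at log2 0.06. The stellate cell marker *Pdgfrb* fell from 121 ± 9.59 to 56.1 ± 0.99 (log2 -1.11) with a list sum of 6635 to 6847 in PBS and 7105 to 7362 in Dex. Markers of T and NK cells and of neutrophils summed to 97.5 to 121 and 48.7 to 72.2 over the 6 libraries, and of 13 and 10 genes only 2 and 3 passed the count filter. B cell and MHC class II markers summed to 1698 to 2733 in PBS and 1459 to 2064 in Dex, cholangiocyte markers to 847 to 1055 and 615 to 846, and red blood cell markers to 892 to 1571 and 1210.2 to 2132. In these 5 lists and that of the pancreas and gut, where 1 of 11 genes passed the filter, *Onecut1* was the single call. Periportal markers summed to 114057 to 131469 in PBS and 166319 to 184250.0 in Dex, with *Sds* and *Pck1* called higher and 0 lower of 11. The median log2 fold change of these markers was 0.06. All such sums follow mainly the most abundant members of a list. The part of cell composition in these results was not tested.

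Counts gained and lost give another order than folds. Among called genes, the 10 largest gains in mean normalized count were *Serpina3k*, *Tat*, *Cyp3a11*, *Hp*, *Pck1*, *Tdo2*, *Fmo5*, *Mug1*, *Lpin1* and *Errfi1*, which together held 4.545% to 5.014% of all counts in Dex and 1.817% to 2.155% in PBS. *Serpina3k* had 85133, 70595 and 59175 in water-PBS and 165852, 178965 and 144856 in water-Dex (log2 fold change 1.19, SE 0.19, DESeq2 adjusted p 5.13e-09). *Fmo5*, a flavin monooxygenase gene, had 5013, 5033 and 5152 in water-PBS and 28869, 26852 and 27997 in water-Dex, with little scatter in either group (log2 fold change 2.46, SE 0.096, DESeq2 adjusted p 3.06e-141), and *Mug1*, a protease inhibitor of the α2-macroglobulin family, rose from 22418 ± 3145 to 44497 ± 5127 (log2 0.99). Among called genes, the 10 largest losses were *Apoa5*, *Plin2*, *Osgin1*, *Arrdc3*, *Prkd3*, *Id2*, *Cebpa*, *Srebf1*, *Erbb3* and *Egr1*, with 0.290% to 0.347% of counts in PBS and 0.0833% to 0.0968% in Dex. *Prkd3*, a protein kinase D gene, fell from 3224 ± 166 to 1468 ± 132 (log2 fold change -1.14, SE 0.088, DESeq2 adjusted p 9.57e-36), and *Erbb3*, a receptor of neuregulins, from 2016 ± 413 to 646 ± 161 (log2 -1.64).

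Gene structure was described for the called genes without a test. On the GENCODE M21 annotation the median gene span was 29005 bases for genes called higher, 16623 for genes called lower and 22933.5 for all tested genes, and the median exonic length was 4657, 4144 and 4316 bases. At most 2 blocks of exon were found in 10.3% of the genes called higher, 16.5% of those called lower and 10.2% of all. The median PBS level was 137, 74.3 and 165 normalized counts in the same order. Protein-coding genes made up 93.7%, 89.6% and 92.3%, and long intergenic or antisense RNAs 3.32%, 5.34% and 2.22%. Of 3799 tested genes with exons that overlap a gene on the other strand, 397 were called, close to the 10.7% called over all tested genes. Among such called genes named here are *Mt2*, *Mdm1*, *Plin4*, *Cdkn1a*, *Tbx3*, *Tnfaip2*, *Rnf152*, *Apoa5*, *Cebpa*, *Srebf1*, *Nr1d1*, *Dusp1*, *Junb*, *Irf1*, *Foxo1* and *Dbp*.

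The PBS mice varied more than the Dex mice in each of 3 summaries. Over 9571 genes whose mean reached 50 normalized counts, the median coefficient of variation was 9.369% in water-PBS and 7.462% in water-Dex; over the 523 such genes called higher it was 14.03% and 8.961%, and over the 352 called lower 15.67% and 14.66%. The summaries of called genes are parts of the first and were chosen on the same counts, so they add no independent support. Genes called higher also had fewer counts in PBS, where counting error is relatively larger. Water-PBS replicate 3 was the lowest of the PBS mice in *Igfbp1*, *Pck1*, *Lpin1* and *Fkbp5* and the highest in *Angptl8*, *Srebf1* and *Id3*. Water-PBS replicate 1 was the highest in *Egr1*, *Osgin1*, *Arrdc3* and *G0s2*. Without water-PBS replicate 3 there were 1230 calls and without water-PBS replicate 1 there were 1358, of which 1123 and 1216 were among the 1356 of all 6 libraries.

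**Figure D5:**
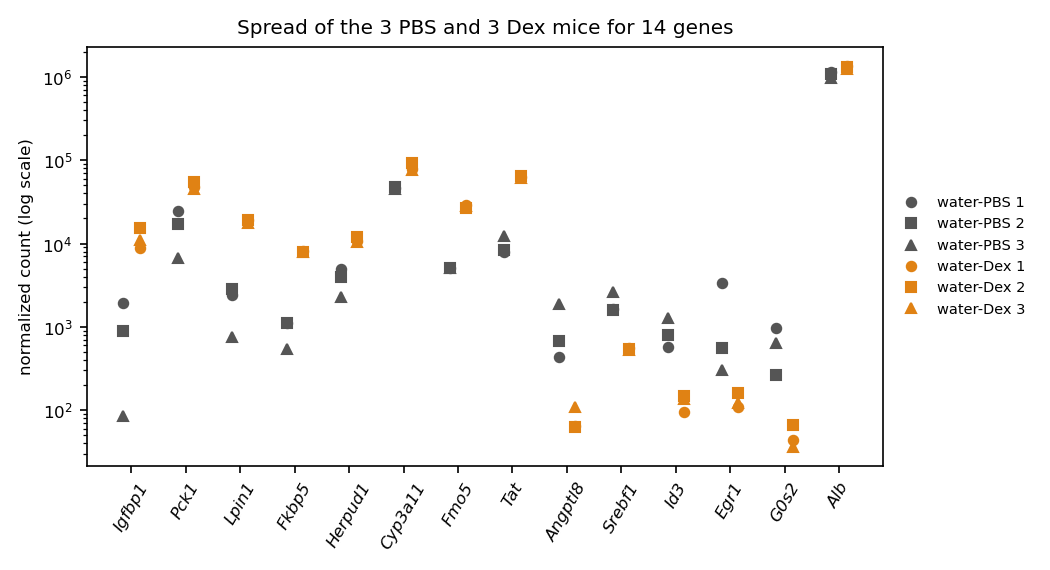
Normalized counts on a log scale (vertical) of 14 genes (horizontal) in the 3 water-PBS mice (grey) and the 3 water-Dex mice (orange), with 1 symbol for each replicate number. The PBS mice spread from 86.2 to 1955 in *Igfbp1* and from 304 to 3390 in *Egr1*, while *Alb* and *Fmo5* were nearly alike in all mice of a group.

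The plain-water response was set beside that of the mice on zinc water only for named genes, by the interaction term of the same fit. Of the 193 named genes called here, all 193 had the same sign in zinc-water mice. By adjusted p alone the Dex effect differed for 3 named genes, of which the interaction of *Amacr* was under the fold threshold of 0.8. Over all tested genes 6 interactions passed both thresholds. *Mt1* had log2 fold changes of 4.43 in plain-water and 1.41 in zinc-water mice (DESeq2 interaction adjusted p 9.12e-17), and *Mt2* had 6.41 and 1.72 (DESeq2 interaction adjusted p 3.26e-16). The paper lists both genes as induced in liver by zinc water alone, so these folds are taken over different PBS levels. *Amacr*, a racemase of bile acid synthesis and branched-chain lipid oxidation, rose from 1457 ± 57.2 to 2605 ± 121 in plain-water mice, a log2 fold change of 0.84 against 1.35 in zinc-water mice (DESeq2 interaction adjusted p 0.009). For the other named genes an adjusted p above the threshold does not show that the effects were alike.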

How the data were processed

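Total RNA of mouse liver was made into stranded TruSeq libraries and sequenced from one end. Per the labels and the study's methods, the authors trimmed reads with Trimmomatic, aligned them to mm10 with HISAT2 2.0.4 and deposited raw counts per gene from featureCounts, with reads that map to several places left out. The annotation release and strand setting of the counting are not given in the sources used here. Genes that share sequence with close copies (the *Serpina3*, *Cyp2b*, *Cyp3a*, *Mug*, *Acot*, *Phf11*, *Orm*, *Saa* and *Ifit3* families, *Hspa1b*) are therefore less certain.

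Counts were fitted in R 4.3.3 with DESeq2 1.42.0, following the study's tool: 1 coefficient per group over all 12 libraries, size factors, Wald test, unshrunken log2 fold changes, and Benjamini-Hochberg adjustment over all genes that reached 10 counts in 3 or more of the 6 plain-water libraries. Calls required an adjusted p below 0.05 and a log2 fold change beyond 0.8 in either direction. Of the genes that passed, 5 got no adjusted p from the outlier filter of DESeq2. The fit was tested on simulated data. The labels number the mice from 1 to 3 in each group and name no batch. The p-values measure the spread between mice within all groups, zinc-water mice included. Alternatives were edgeR 4.0.16, TMM factors, other count filters, the 6 libraries alone, the replicate block, no fold threshold, no outlier filter, and leaving out each library. Depth per library is given with the results, and intervals cover counting error only. Gene coordinates are those of GENCODE M21 on mm10, joined by gene identifier, and promoters are those of RefSeq on GRCm38.p6, joined by symbol. Python 3.11.15 with pandas 2.3.3, scipy 1.17.1 and matplotlib 3.10.9 made summaries and plots.

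The comparison and the gene lists were chosen with earlier results of these data known. Named are the 15 largest called increases and decreases whose mean reached 50 normalized counts and whose groups were separate, genes with at most 3 counts in every PBS library and at least 50 in every Dex library, the 10 largest gains and losses in counts among called genes, and from each list up to 4 called members by size of change, up to 3 uncalled members by level, and members whose role carries the list. Other genes were named after their values were seen, among them *Setdb2*, *Tsc22d3*, *Sgk1*, *Zbtb16*, *Pdk4*, *Id1* and *Orm1*. A fold against a group with no counts used a floor of 3 counts per library. The values of a few genes that the rule would name are not reported here.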

Additional observations from a re-analysis of the deposited data

Results flagged for a closer look

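For 3 named genes the effect of Dex differed between plain-water and zinc-water mice by the interaction term of the fit over all 12 libraries. Here an adjusted p under 0.05 was required and no fold threshold. The interaction is the zinc-water minus the plain-water log2 fold change. *Mt2* had an interaction of -4.68 (SE 0.51, DESeq2 adjusted p 3.26e-16), from 6.41 in plain-water to 1.72 in zinc-water mice. *Mt1* had an interaction of -3.02 (SE 0.32, DESeq2 adjusted p 9.12e-17), from 4.43 to 1.41. *Amacr* had an interaction of 0.51 (SE 0.11, DESeq2 adjusted p 0.009), from 0.84 to 1.35. Metallothioneins bind zinc, and both genes were higher with Dex in both kinds of mice. The paper lists *Mt1* and *Mt2* as induced in liver by zinc water alone, so their zinc-water folds are over a higher PBS level. A smaller fold over a higher level does not show a smaller gain in counts. Groups of 3 mice were too small for the search for single outlying samples.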

How the results depend on the processing

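The number of called genes stayed within 1.5 times of 1356 under all alternatives but one. With an adjusted p under 0.05 and no fold threshold, 3151 genes passed, 1623 higher and 1528 lower. EdgeR called 1450 genes (691 higher, 759 lower), of which 1343 were among the 1356. Leaving out 1 library at a time gave 1209 to 1358 calls in all, 605 to 687 higher and 594 to 671 lower. The replicate block gave 1269 calls (646 higher, 623 lower). Same-numbered Dex and PBS mice did not deviate together (correlations of -0.043, 0.014 and 0.078), and not every mouse correlated best with its own number, so the numbers were not taken as pairs. Without genes that passed the count filter in 1 group only, a choice made after seeing the data, 1225 calls were left (608 higher, 617 lower). Of 193 called named genes, 168 kept the call in every alternative that gave a value and 25 lost it in at least 1, while 10 of 170 uncalled named genes were called in at least 1; 0 changed direction. A fold moved over 1.5 times in 15 called named genes. With 3 mice per group, an exact permutation test of 1 gene cannot go below 0.1, so single-gene calls rest on the spread shared by the DESeq2 fit.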

Other observations

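Called genes often had a called neighbour in the same direction. Among genes called higher, 160 of 663 (24.1%) lay beside another gene called higher in the order of tested genes, against 10.1% of all tested genes, and among genes called lower 149 of 693 (21.5%) lay beside one called lower, against 10.5%. Runs of increases included *Serpina3h*, *Serpina3k*, *Serpina3m* and *Serpina3n* (chromosome 12, 104247905 to 104414329), *Phf11c*, *Setdb2* and *Cab39l* (chromosome 14, 59380833 to 59585764) and *Trib2*, *Lpin1* and *Greb1* (chromosome 12, 15791727 to 16800886). Runs of decreases included *Ifit2*, *Ifit3*, *Ifit3b* and *Ifit1* (chromosome 19, 34550694 to 34650009) and the acyl-CoA thioesterase genes *Acot4*, *Acot3* and *Acot6* with *4732463B04Rik* (chromosome 12, 84038379 to 84111349). *Acot6* was uncalled in 7 of the 13 alternatives, such as the 6 plain-water libraries alone (DESeq2 adjusted p 0.102) and the replicate block (DESeq2 adjusted p 0.0632), and *Ifit1* in 2 of them. *Serpina3h* and *Greb1* passed the count filter through Dex only and *4732463B04Rik* through PBS only. Several of these runs are families of similar sequence, and no test was made. Some called neighbours overlap on opposite strands, as *Gm45774* and *Mt2* do. Without the strand setting of the counting, reads of such a pair cannot be told apart, and these shares include them.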
